A study of Schizosaccharomyces pombe with 29 samples.

Results

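The alleles rpb1-CTD-(ALT-P3A) and rpb1-CTD-(ALT-P6A) of fission yeast, Schizosaccharomyces pombe, were compared with each other across all genes. Members were taken by name, as the 3 libraries labelled ALT-P3A and the 3 labelled ALT-P6A, 6 of the 29 sample records of the study. The study sequenced polyadenylated RNA from strains in which the carboxy-terminal domain (CTD) of the polymerase subunit Rpb1 was changed. Both strains are haploid, of mating type h+, and carry 29 CTD heptads with a NatMX marker at rpb1. The ALT-P3A strain has the laboratory number AS2612 and the genotype h+ rpb1-CTD-(ALT-P3A)29::NatMX. The ALT-P6A strain is AS2614, h+ rpb1-CTD-(ALT-P6A)29::NatMX. The allele names give alanine in place of the proline at heptad position 3 or 6, and the meaning of the prefix ALT is not given. Cultures of both were in log phase in YES medium at 30 °C. Each allele is 1 strain, and no label says that its 3 libraries came from separate cultures, so p-values measure only the spread between these libraries. For orientation, levels are also given for 3 libraries of ALT-S5A (strain BS60, h+ rpb1-CTD-(ALT-S5A)29::NatMX), an allele named for serine 5, and for 3 libraries of the wild-type strain WT29 (set 1), strain AS785, h+ rpb1-CTD-WT29::NatMX. The labels name another wild-type record as the control of the ALT alleles. Its libraries were not used here, and it enters only through the log2 fold changes in the authors' deposited tables.

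Rpb1 is the largest subunit of RNA polymerase II, and its CTD is a tail of repeated heptads, each with a pair of prolines next to serines. Kinases and phosphatases change the phosphorylation of the tail during transcription, prolyl isomerases can switch its prolines between the cis and trans forms, and capping, splicing, termination and 3′ processing factors bind it. In fission yeast the phosphate acquisition genes pho1, pho84 and tgp1 each lie downstream of a non-coding transcription unit whose transcription interferes with the gene, and changes in the CTD or in termination factors are known to alter their level. The interfering RNAs that read into these genes were not analysed here. SPNCRNA.1343, an RNA annotated on the upstream side of tgp1 and on the opposite strand, is given with the other non-coding RNAs.

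Gene levels are given as CPM, a gene's counts relative to the scaled total of its library, with the 12 libraries named above scaled together. CPM takes no account of gene length and is compared only within a gene. Fold changes are ALT-P3A over ALT-P6A on the log2 scale, with the standard error (SE), from edgeR's quasi-likelihood test on the 6 libraries with Benjamini-Hochberg adjustment over the 6100 genes tested. A gene rose or fell in ALT-P3A where the adjusted p was under 0.05, and it was called where the change was also at least 2-fold. The ALT-P3A libraries held 26536916, 19541019 and 24145163 counts and the ALT-P6A libraries 28137577, 26002783 and 25581686. On the first principal component, with 76.0% of the variance, the ALT-P3A libraries lay between -12.5 and -12.0 and the ALT-P6A libraries between 11.3 and 13.1. Correlations of log2 CPM between libraries were 0.995 to 0.998 within an allele and 0.984 to 0.986 between alleles. The ALT-P6A libraries were the more spread on the second component, from -6.80 to 8.50, against -2.76 to 1.97 for ALT-P3A.

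The mutated gene itself, rpb1 (SPBC28F2.12), was measured at 91.6, 101 and 87.2 CPM in ALT-P3A and at 66.7, 71.7 and 73.7 CPM in ALT-P6A. The alleles did not overlap, and both lay below the WT29 set 1 libraries at 152, 168 and 176 CPM. In ALT-P3A the transcript rose by a log2 fold change of 0.42 ± 0.06 (SE, n = 3 each; edgeR adjusted p = 0.000133). In the authors' deposited tables it was below their control in both alleles, by a log2 fold change of -0.67 in ALT-P3A and -1.08 in ALT-P6A. Counts of rpb1 do not check the amino acid changes, which are not visible in a gene count.

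Of the 6100 genes, 126 were called higher in ALT-P3A (2.07%) and 68 lower (1.11%), 194 in all (3.18%). Without the 2-fold minimum 1387 rose (22.7%) and 1190 fell (19.5%), 2577 in all (42.2%). These are the shares to set beside the counts of the gene lists below. Small differences were thus common: the median size of a log2 fold change was 0.18, and the libraries of the alleles did not overlap in CPM for 3114 genes (51.0%). Of the 194 called genes 190 did not overlap, so non-overlap adds little to a call. It was also a condition for the genes named by rule for the largest changes. Among coding genes the largest falls were those of shu1 and str3, both weakly expressed in ALT-P6A, followed by tgp1 and ght5, at much higher levels. Most genes called higher were weakly expressed: 79 of those 126, and 35 of the 68 called lower, had an average log2 CPM under 2. The median log2 fold change of all genes was 0.03.

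**Figure D1:**
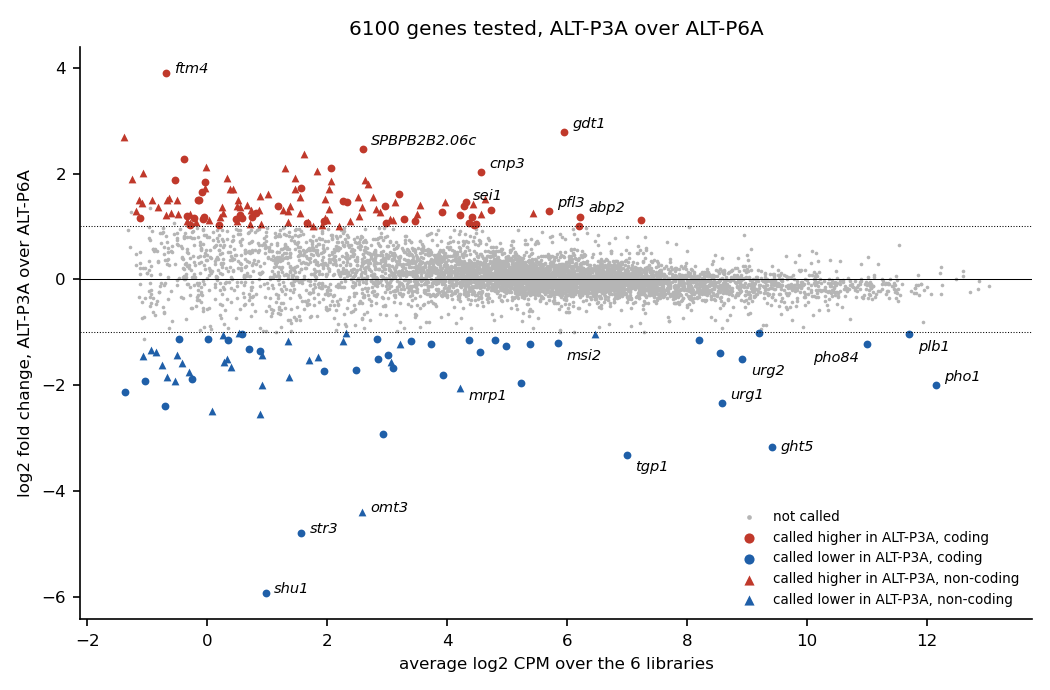
Each point is a gene, with its average log2 CPM over the 6 libraries on the x axis and its log2 fold change, ALT-P3A over ALT-P6A, on the y axis. Red marks the 126 genes called higher in ALT-P3A and blue the 68 called lower (circles coding, triangles non-coding), and dotted lines mark the 2-fold minimum. The falls of tgp1, ght5, urg1 and pho1 stand at higher levels than all genes called higher except SPBC887.17.

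All 3 genes of the phosphate uptake list fell in ALT-P3A, and all 3 were called. The transcript of tgp1, the plasma membrane transporter of glycerophosphodiesters, was at 21.8, 23.4 and 21.7 CPM in ALT-P3A and at 229.7, 222 and 224 CPM in ALT-P6A. The ALT-P3A libraries were far below the ALT-P6A libraries, 9.95-fold in the fit, with a log2 fold change of -3.31 ± 0.05 (edgeR adjusted p = 3.65e-14). The acid phosphatase gene pho1 was at 1702, 1926 and 1608 CPM in ALT-P3A, against 7276, 6711 and 7200.5 CPM in ALT-P6A, a log2 fold change of -1.99 ± 0.08 (edgeR adjusted p = 3.04e-09). The phosphate transporter gene pho84 was at 1141, 1256 and 1148 CPM in ALT-P3A and at 2853, 2704 and 2815 CPM in ALT-P6A, with a log2 fold change of -1.21 ± 0.06 (edgeR adjusted p = 3.02e-08). For none of the 3 genes did the alleles overlap.

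The WT29 set 1 libraries had 13.1, 12.8 and 11 CPM of tgp1, below both alleles. For pho1 they had 1456, 1411 and 1289 CPM, also below both. For pho84 the 3 wild-type libraries, at 1750.3, 1717 and 1713 CPM, lay above ALT-P3A and below ALT-P6A. ALT-S5A had levels near those of ALT-P6A, for instance 6832, 6142 and 6624 CPM of pho1. In the authors' deposited tables, which use 1 control for both alleles, the log2 fold change of tgp1 over that control was 1.18 in ALT-P3A and 4.51 in ALT-P6A. The authors' deposited tables give 0.81 and 2.82 for pho1, and 0.01 and 1.24 for pho84, in the same order.

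A further gene annotated as a plasma membrane phosphate transporter, SPAC23D3.12, was not in the list and was picked after its values were seen. It was at 166, 191 and 172 CPM in ALT-P3A and at 391, 395 and 397 CPM in ALT-P6A, with no overlap and a log2 fold change of -1.14 ± 0.05 (edgeR adjusted p = 6.91e-09). The authors' deposited tables place it differently from pho1 and tgp1 against their control, at -1.13 in ALT-P3A and 0.03 in ALT-P6A. The regulators of the phosphate genes moved little. The transcription factor gene pho7 had a log2 fold change of -0.01 ± 0.05 (edgeR adjusted p = 0.826), and asp1, which encodes the kinase and pyrophosphatase of inositol pyrophosphates, had -0.11 ± 0.07 (edgeR adjusted p = 0.249). The kinase gene csk1 rose by 0.44 ± 0.10 and the inositol phosphate kinase gene kcs1 by 0.17, and the inositol pyrophosphatase gene aps1 fell by 0.16, so that 2 of the 5 regulators rose and 1 fell. Without ALT-P3A library 1 or 3, or ALT-P6A library 1, 1 member rose, and without ALT-P3A library 2 or 3, or ALT-P6A library 2 or 3, none fell.

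**Figure D2:**
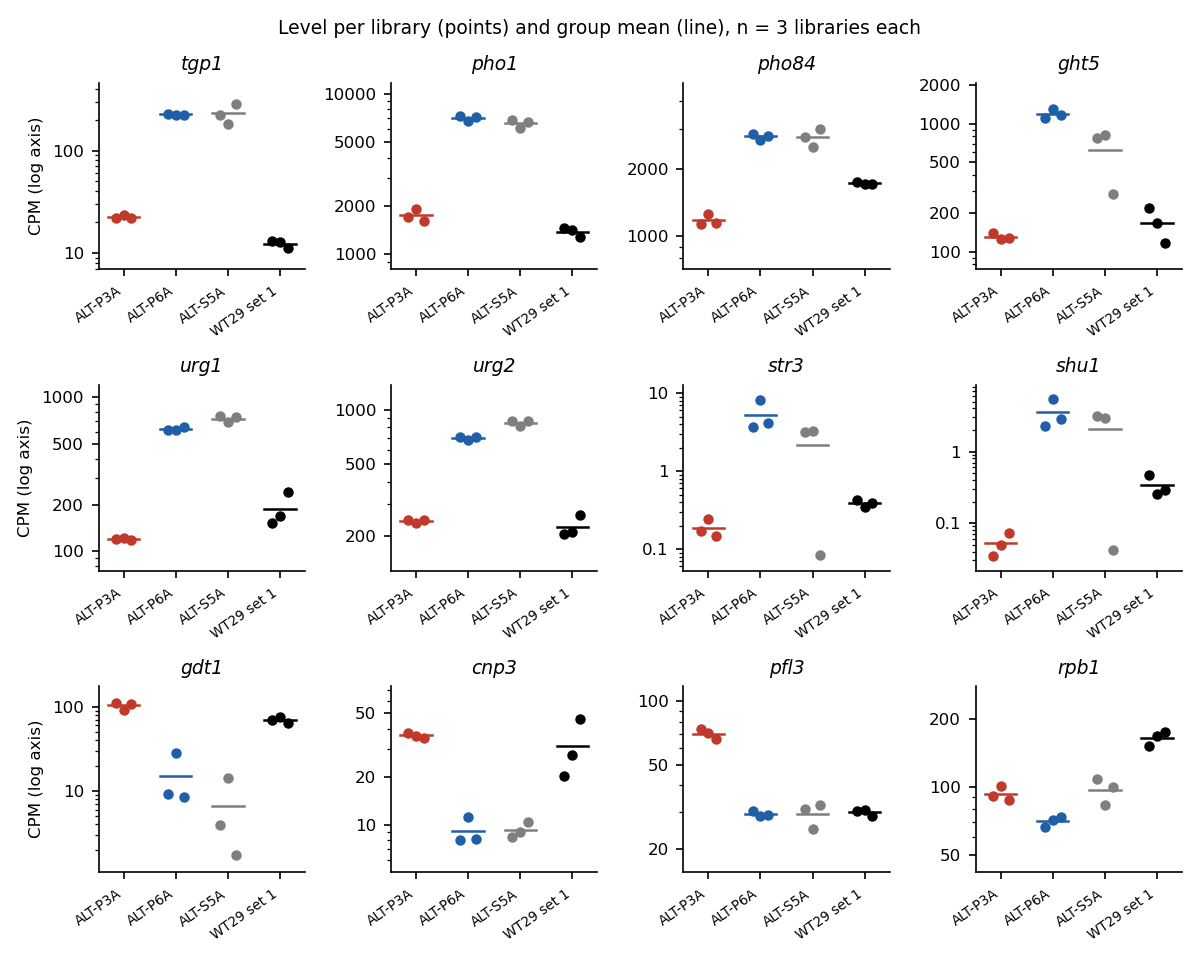
Points are single libraries and lines the means of 3 libraries, in CPM on a log axis, for 12 genes in ALT-P3A, ALT-P6A, ALT-S5A and WT29 set 1. For tgp1, pho1, pho84, ght5, urg1, urg2, str3 and shu1 every ALT-P3A library lies below every ALT-P6A library, and for gdt1, cnp3, pfl3 and rpb1 every one lies above.

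Among hexose transporter genes 3 were called lower in ALT-P3A. The gene ght5, which encodes the high-affinity glucose transporter used when glucose is low, was at 139.9, 125 and 128 CPM in ALT-P3A and at 1105, 1302 and 1167 CPM in ALT-P6A. Every ALT-P6A library was several times every ALT-P3A library, and the log2 fold change was -3.16 ± 0.08 (edgeR adjusted p = 6.15e-12). ALT-P3A was within the range of the WT29 set 1 libraries (222, 167 and 117 CPM), while ALT-P6A lay above all of them. In the authors' deposited tables ght5 was above the control in both alleles, by 1.01 in ALT-P3A and 4.18 in ALT-P6A. The gluconate transporter gene ght3 (-1.70 ± 0.14) and the glucose transporter gene ght1 (-1.51 ± 0.16) were called lower too. Both were below all WT29 set 1 libraries in ALT-P3A and above all of them in ALT-P6A.

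Other hexose transporter genes did not follow. The transcript of ght6 rose by 0.73 ± 0.19 at 2.27 ± 0.23 CPM in ALT-P3A and 1.40 ± 0.14 CPM in ALT-P6A (SD, n = 3 each). The fall of ght2 was 0.21 on the log2 scale, and ght4, ght7 and ght8 did not pass, with log2 fold changes of -0.22, -0.09 and -0.01. Of the 14 genes of the list of hexose transporters and glucose-repressed genes, 6 fell, 1 rose and 7 did not pass, with a median log2 fold change of -0.21 against 0.03 for all genes. The gluconeogenic gene fbp1, repressed by glucose, had a log2 fold change of 0.00 and did not pass. The gene pck1 had 0.02 and did not pass either. In fission yeast pck1 names a protein kinase C gene and not a gluconeogenic one, so the list's counts may include genes of other functions. The repressor gene scr1 fell by 0.44 and the activator gene rst2 by 0.25.

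Of 14 glycolytic genes 8 fell and none rose, with a median log2 fold change of -0.27. The falls were small, and gpd3, one of the glyceraldehyde 3-phosphate dehydrogenase genes, had the largest at -0.89 ± 0.07, with 89.6 ± 9.18 CPM in ALT-P3A and 169 ± 16.8 CPM in ALT-P6A (SD, n = 3 each). The pyruvate decarboxylase gene pdc101 fell by 0.36 and the phosphoglucose isomerase gene pgi1 by 0.33. For tpi1, pyk1 and adh1 the log2 fold changes were -0.02, -0.13 and 0.08 and did not pass.

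The 3 uracil-regulated genes, which are neighbours in the genome and are induced by uracil in fission yeast, all fell in ALT-P3A. The GTP cyclohydrolase gene urg1 was at 119.9, 122 and 119 CPM in ALT-P3A and at 612, 611 and 639.8 CPM in ALT-P6A, a log2 fold change of -2.34 ± 0.05 (edgeR adjusted p = 6.27e-13). The uracil phosphoribosyltransferase gene urg2 was at 245, 238 and 245 CPM in ALT-P3A, against 705, 678 and 708 CPM in ALT-P6A, with -1.50 ± 0.05 (edgeR adjusted p = 1.57e-10). The fall of urg3 was smaller, -0.53 ± 0.04. The spread within each allele was a few percent of its mean for all 3 genes, and the alleles did not overlap. The place of these levels against wild type depends on which wild type is used. WT29 set 1 had 153, 169 and 244 CPM of urg1, above ALT-P3A and below ALT-P6A, whereas in the authors' deposited tables urg1 was below their control in both alleles, at -3.90 in ALT-P3A and -1.54 in ALT-P6A. Another gene of pyrimidine metabolism, the predicted cytosine deaminase gene SPCC965.14c, was at 14.1, 16.2 and 13.5 CPM in ALT-P3A and at 57.2, 55.2 and 60.3 CPM in ALT-P6A, a log2 fold change of -1.96 ± 0.08 (edgeR adjusted p = 1.92e-09).

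Iron acquisition genes were divided, with some uptake genes lower in ALT-P3A and others not. Of 12 genes 5 fell, 3 of them called, and none rose (1 rose without ALT-P6A library 3). The list's median was -0.22. The cell-surface heme receptor gene shu1 had 1, 1 and 2 counts in the ALT-P3A libraries and 63, 145 and 71 counts in the ALT-P6A libraries. The ratio of the summed counts per total was 0.0163, with an exact 95% interval of 0.00440 to 0.0421 that covers counting error only. The siderophore transporter gene str3 was at 0.172, 0.244 and 0.148 CPM in ALT-P3A and at 3.64, 8.05 and 4.14 CPM in ALT-P6A, a log2 fold change of -4.79 ± 0.43 (edgeR adjusted p = 3.12e-06). Both genes were weakly expressed in ALT-P6A and near the detection limit in ALT-P3A, and ALT-P6A library 2 was the highest for each. The WT29 set 1 libraries were between the alleles, with 0.426, 0.341 and 0.384 CPM of str3.

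The reductive uptake pair followed at higher levels. The multicopper oxidase gene fio1 was at 12.8, 12.7 and 11.2 CPM in ALT-P3A and at 23.2, 31.9 and 26.9 CPM in ALT-P6A, with a log2 fold change of -1.14 ± 0.12, and the iron permease gene fip1 had -0.99 ± 0.06. The siderophore transporter gene str1 fell by 0.60. The other siderophore transporter gene of the list, str2 (0.14 ± 0.10), and the ferric reductase genes frp1 (-0.32 ± 0.15) and frp2 (0.06 ± 0.14) did not pass. The iron-sensing repressor gene fep1 had -0.08 ± 0.04 and the repressor subunit gene php4 -0.11 ± 0.07, and neither passed. The siderophore synthesis genes sib1 and sib2 had 0.09 and -0.13, also without passing. In the authors' deposited tables str3 was at -0.97 in ALT-P3A and 3.84 in ALT-P6A over their control, and fio1 at 0.63 and 1.78 in the same order. ALT-S5A library 3 stood apart from its 2 other libraries for str3, with 0.0839 CPM against 3.19 and 3.25 CPM, and less so for fio1 (8.77 against 12.2 and 15.8 CPM). That library was also low outside the iron genes, as for ght5 (285 against 769 and 814 CPM) and omt3 (4.87 against 13.4 and 20.4 CPM). For pho1 it lay between the other libraries.

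Of copper and zinc genes more rose than fell. The copper transporter genes ctr4 and ctr5 rose in ALT-P3A by 0.89 ± 0.13 and 0.69 ± 0.08, with 99.8 ± 16.7 CPM of ctr4 in ALT-P3A and 55.2 ± 11 CPM in ALT-P6A (SD, n = 3 each). The zinc transporter gene zrt1 rose by 0.41. Of 10 genes of the list 4 rose and 1 fell, and none was called. The fall of the zinc efflux gene zhf1, 0.19, did not hold without ALT-P3A library 1, ALT-P6A library 1 or ALT-P6A library 3.

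Of the genes higher in ALT-P3A, gdt1, which encodes a Golgi calcium and manganese antiporter, had the largest change among coding genes whose average log2 CPM was 2 or more. It was at 110.2, 91.8 and 109 CPM in ALT-P3A and at 9.20, 28.0 and 8.45 CPM in ALT-P6A. The alleles did not overlap, which the naming rule required. ALT-P6A library 2 was well above the other libraries of that allele, and the log2 fold change of 2.79 ± 0.31 (edgeR adjusted p = 1.83e-05) has a wide error. WT29 set 1 had 69.7, 76.2 and 63.5 CPM and ALT-S5A 3.93, 14.2 and 1.72 CPM. In the authors' deposited tables gdt1 was at 0.46 in ALT-P3A, without passing, and at -2.33 in ALT-P6A.

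The gene cnp3, which encodes the kinetochore protein related to CENP-C, was at 37.7, 36.1 and 35.1 CPM in ALT-P3A and at 8.01, 11.1 and 8.09 CPM in ALT-P6A. No ALT-P6A library came near the ALT-P3A level, and the log2 fold change was 2.02 ± 0.12 (edgeR adjusted p = 7.14e-08). WT29 set 1 was spread across 20.1, 27.1 and 46.3 CPM. In the authors' deposited tables cnp3 was at -0.13 in ALT-P3A, without passing, and at -2.14 in ALT-P6A.

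Other genes called higher were at raised or lowered levels against the authors' control in different ways. The flocculin gene pfl3, for a cell surface glycoprotein, was at 73.7, 70.4 and 66.2 CPM in ALT-P3A and at 30.1, 28.6 and 29.0 CPM in ALT-P6A, a log2 fold change of 1.29 ± 0.06 (edgeR adjusted p = 1.25e-08). All 6 libraries of ALT-P6A and WT29 set 1 lay between 28.6 and 30.7 CPM. The predicted extracellular 5′-nucleotidase gene SPBPB2B2.06c was at 9.69, 9.58 and 9.85 CPM in ALT-P3A, against 2.13, 1.31 and 1.91 CPM in ALT-P6A and 3.46, 3.07 and 1.63 CPM in WT29 set 1. For sei1, the seipin gene of lipid droplets, the ALT-P3A libraries (25.9, 23.8 and 31.0 CPM) were near WT29 set 1 (23.4, 24.3 and 21.2 CPM), and ALT-P6A was lower at 10.6, 10.7 and 10.1 CPM. The authors' deposited tables give 1.33 for pfl3 in ALT-P3A and 0.06 in ALT-P6A, and 0.12 for sei1 in ALT-P3A and -1.25 in ALT-P6A. The other coding genes with the largest rises at that level of expression were SPBPB2B2.01 (2.1), SPBPB10D8.01 (1.62), SPAC4H3.08 (1.48), SPBC1683.04 (1.46), SPBC2A9.14 (1.46), SPCC569.03 (1.39) and pan5 (1.31).

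Called genes had a called neighbour more often than tested genes as a whole, though most had none. In the gene order of the reference annotation, 26 of the 125 genes called higher that could be placed had a directly neighbouring tested gene that was called higher (20.8%), while 3.96% of the 6087 tested genes in that order had such a neighbour. For genes called lower it was 14 of 68 (20.6%), against 2.12% of all. One run of 3 genes was ecl3, pho84 and pho1: ecl3, a gene named for extending chronological lifespan, was at 6.84, 5.91 and 6.35 CPM in ALT-P3A and at 20.3, 24.0 and 23.8 CPM in ALT-P6A. Another run was ght3, shu1 and str3. SPCC1235.18, which is annotated as dubious and lies beside ght5, fell by 2.92 on the log2 scale with ght5. Whether reads of one gene were counted in its neighbour was not tested.

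Among the higher genes, cnp3, SPNCRNA.1673 and abp2 formed a run. The intergenic RNA SPNCRNA.1673 was at 5.50, 4.20 and 4.65 CPM in ALT-P3A and at 1.12, 0.970 and 0.731 CPM in ALT-P6A. The next gene, abp2, whose product may bind replication origins, was at 103, 98.1 and 93.9 CPM in ALT-P3A and at 42.4, 42.4 and 47.1 CPM in ALT-P6A, a log2 fold change of 1.19 ± 0.06. The genes on either side of the run had log2 fold changes of -0.06 (mrpl44, without passing) and 0.17 (mak10). Another run held gdt1 between SPAC186.04c (1.18 ± 0.35) and SPAC186.06 (1.72 ± 0.35). Beside pho1 the direction changed within a few genes: SPBPB2B2.01 and the sterol deacetylase gene say1 were called higher, at 2.1 ± 0.16 and 1.11 ± 0.19.

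**Figure D3:**
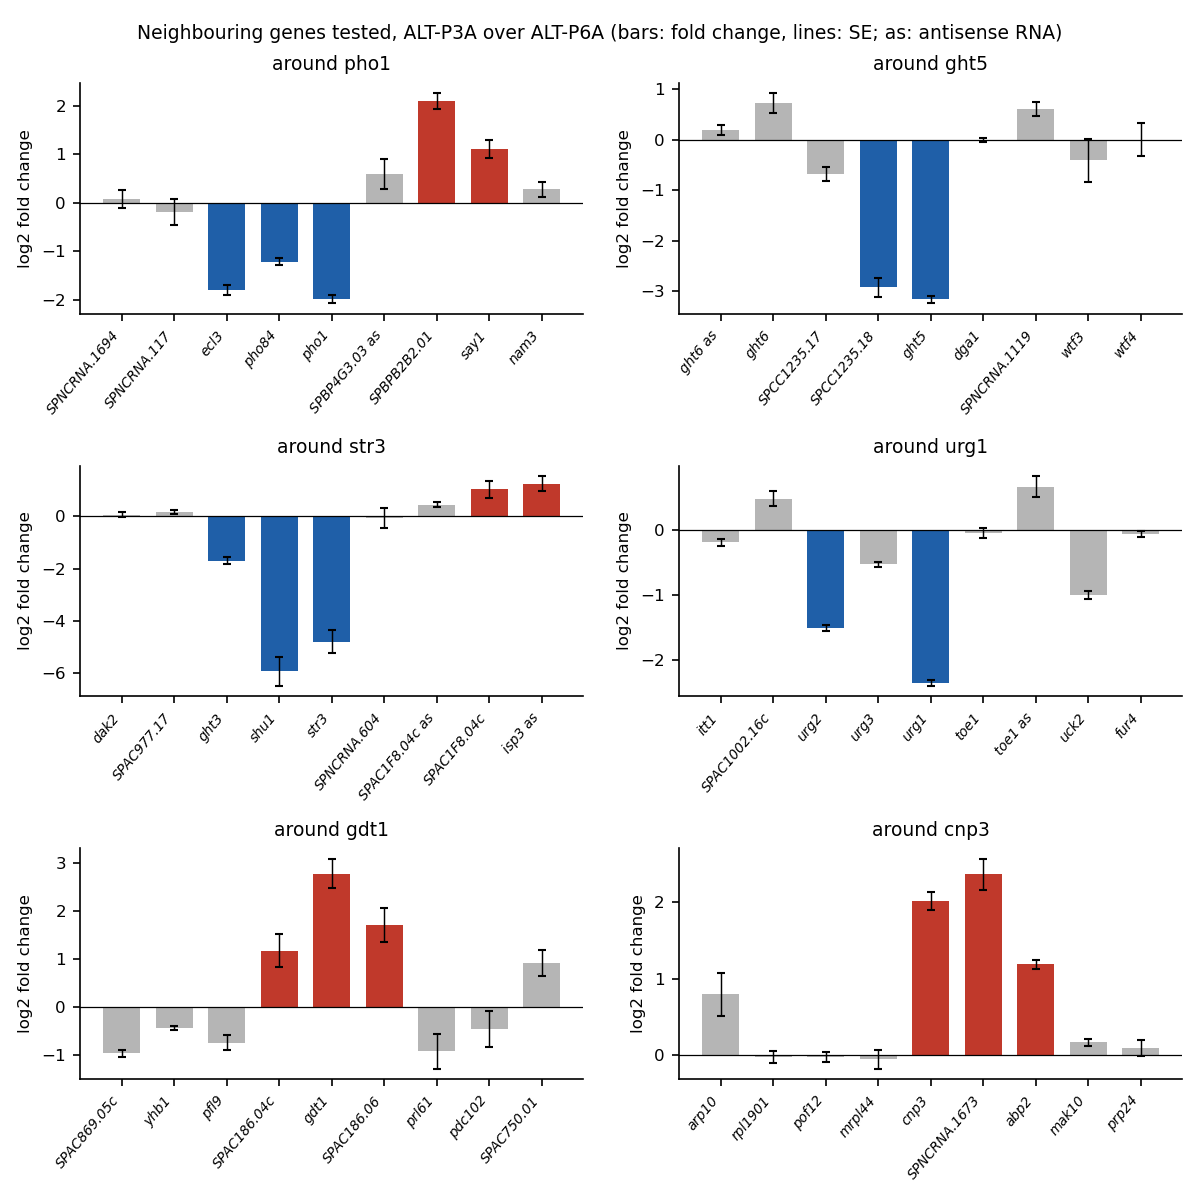
Bars are log2 fold changes, ALT-P3A over ALT-P6A, with the SE as lines, of tested genes in their order along the chromosome around 6 genes (as, antisense RNA). Blue and red bars are called lower and higher. In these chosen windows most calls sit in runs of 2 to 3 genes, whereas 20.8% of all genes called higher and 20.6% of those called lower had such a neighbour. The genes urg1 and urg2 stand on either side of urg3, which fell by less than 2-fold. Past the run ecl3, pho84 and pho1 the genes SPBPB2B2.01 and say1 change in the other direction.

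By class, the long non-coding RNAs (lncRNAs) had a higher median log2 fold change than protein-coding genes. Of 1038 lncRNAs tested, 76 were called higher (7.32%) and 15 lower (1.45%), and their median log2 fold change was 0.32. Of 4963 coding genes 47 were called higher (0.947%) and 39 lower (0.786%), with a median of 0.00. The count of lncRNAs called higher was 121 without ALT-P6A library 3, and the count called lower was 23 without ALT-P3A library 3. Since lncRNAs are weakly expressed, the comparison was also made between an average log2 CPM of 0 and 4: there 278 of 785 lncRNAs rose (35.4%) and 67 fell (8.54%), with a median of 0.32, and 195 of 691 coding genes rose (28.2%) and 60 fell (8.68%), with a median of 0.15. Weakly expressed coding genes thus also rose more often than they fell. Within that range the lncRNAs were still the weaker, with a median log2 CPM of 1.93 against 3.13 for coding genes, so the classes were not matched in level. The lncRNA genes took 1.28%, 1.17% and 1.28% of the counts of the ALT-P3A libraries and 0.881%, 0.881% and 0.916% of those of the ALT-P6A libraries, without overlap.

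Antisense RNAs, annotated opposite a coding gene, were the largest group of these: of 656 tested 261 rose and 42 fell, with a median log2 fold change of 0.34. The antisense RNA of end4 was at 10, 8.70 and 9.08 CPM in ALT-P3A and at 2.1, 2.76 and 2.89 CPM in ALT-P6A, a log2 fold change of 1.88 ± 0.15 (edgeR adjusted p = 1.08e-06). That of epe1, the gene of an anti-silencing factor, was at 10.1, 9.14 and 9.26 CPM in ALT-P3A and at 2.67, 2.83 and 2.80 CPM in ALT-P6A, with 1.80 ± 0.13. The alleles did not overlap for either, which the naming rule required. Against WT29 set 1 they were placed differently, since end4-antisense-1 in wild type (2.89, 3.41 and 3.02 CPM) was near ALT-P6A and epe1-antisense-1 (7.39, 8.91 and 8.73 CPM) was near ALT-P3A. The most abundant of those called, gnr1-antisense-1, was at 57.5, 58.6 and 59.2 CPM in ALT-P3A and at 26.7, 24.6 and 23.3 CPM in ALT-P6A.

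Most of the coding genes opposite moved little. Of the 38 called-higher antisense RNAs whose sense gene was tested, 14 sense genes rose (36.8%) and 1 fell (2.63%), with a median log2 fold change of 0.13. Over all 580 pairs 30.2% of sense genes rose and 16.4% fell, with a median of 0.05. Of the 38 sense genes 2 were called higher and 0 lower, against 9 and 2 of the 580. SPBC1773.12 rose by 1.38 with its antisense RNA at 1.52, and SPBPB10D8.02c by 1.88 with its antisense RNA at 1.41. The sense gene epe1 rose by 0.37 ± 0.06 and end4 by 0.20, and dph4, which makes a diphthamide synthesis protein, fell by 0.72 while its antisense RNA rose by 1.13. The library kit was stranded, but whether the authors counted by strand is not given in the sources used here. Reads of a gene and of its antisense partner therefore cannot be told apart with certainty. Among RNAs between genes, SPNCRNA.779 and SPNCRNA.780 lie next to each other and had log2 fold changes of 1.86 and 1.70. SPNCRNA.1343, the tested gene on the upstream side of tgp1 and on the other strand in the reference order, was higher in ALT-P3A, at 10.9, 13.2 and 12.7 CPM against 4.69, 4.03 and 4.88 CPM in ALT-P6A, while tgp1 was lower. In WT29 set 1 it was above both, at 20.5, 19.0 and 25.3 CPM.

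Among the lncRNAs, omt3 and the RNA of RNase MRP had the largest falls. The intergenic RNA omt3 was at 0.722, 0.244 and 0.443 CPM in ALT-P3A and at 10, 14.2 and 7.72 CPM in ALT-P6A, a log2 fold change of -4.40 ± 0.31 (edgeR adjusted p = 3.43e-07), and WT29 set 1 was above both at 30.8, 28.9 and 26.8 CPM. The RNA of mrp1, the RNA subunit of the rRNA-processing enzyme RNase MRP, was at 6.87, 6.74 and 6.83 CPM in ALT-P3A and at 30.3, 27.0 and 29.0 CPM in ALT-P6A, a log2 fold change of -2.05 ± 0.09. The 7SL RNA gene srp7 of the signal recognition particle fell by 1.23 ± 0.28, with ALT-P6A spread over 10.1, 18.6 and 8.37 CPM. The RNAs of mrp1 and srp7 are not normally polyadenylated, so their counts in a polyA library are a residue.

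The small nuclear and nucleolar RNAs and a mixed class had negative medians. Of 42 small nuclear and nucleolar RNAs 13 fell and 4 rose, with a median log2 fold change of -0.33. Of 44 tRNA, rRNA, other non-coding RNA and pseudogene entries 17 fell and 5 rose, with a median of -0.40, and 10 were called lower. Of those 10, 7 were single 5S rRNA copies such as SPRRNA.03, at 0.481, 0.440 and 0.517 CPM in ALT-P3A and 3.03, 3.02 and 2.56 CPM in ALT-P6A. For structural RNAs of these kinds too, counts in a polyA library are a residue. Single copies of 5S rRNA share their sequence and are uncertain.

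**Figure D4:**
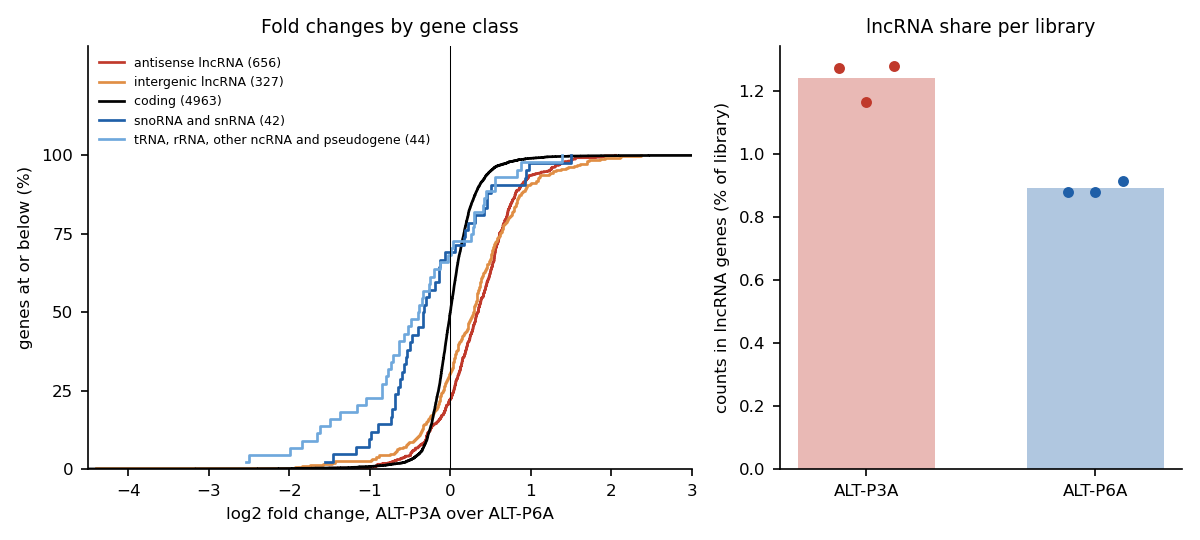
Left, the cumulative share of genes (%) at or below each log2 fold change, ALT-P3A over ALT-P6A, by class, with the number of genes tested. Right, the share of counts (%) in lncRNA genes per library, with bars for the mean of 3 libraries from 0. Antisense and intergenic lncRNAs lie to the right of coding genes (medians 0.34, 0.28 and 0.00), small nuclear and nucleolar RNAs (median -0.33) and the mixed class of tRNA, rRNA, other non-coding RNA and pseudogenes (-0.40) have medians to the left, and the ALT-P3A libraries have the larger lncRNA share.

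The transcripts of the machinery that acts on the CTD had small fold changes. Of 16 genes of CTD kinases, phosphatases and isomerases, 1 rose and 2 fell, with a median log2 fold change of -0.02. The gene that rose was csk1, and those that fell were mcs6 (-0.19 ± 0.04), the kinase of TFIIH, and dis2 (-0.20 ± 0.05), a phosphatase of the cleavage and polyadenylation factor. The genes ssu72 and fcp1, which encode CTD phosphatases, had 0.02 and -0.03. The kinase genes cdk9 and lsk1 had 0.07 and -0.08, and lsg1, which encodes a partner of the Lsk1 kinase, had 0.18 ± 0.12. Counts of this list moved with single libraries: 3 members rose without ALT-P6A library 2, 4 fell without it or without ALT-P3A library 2, and 1 fell without ALT-P6A library 1.

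Of the 3 capping enzyme genes, pcm1, the cap methyltransferase, fell by 0.29 ± 0.11 (edgeR adjusted p = 0.047), and this was lost without ALT-P3A library 3 or ALT-P6A library 1 or 2, with the replicate number as a block and with the ALT-S5A libraries added to the fit. Without ALT-P6A library 3 a second member fell. The triphosphatase gene pct1 had -0.19 and the guanylyltransferase gene ceg1 0.14. Of the other RNA polymerase II subunit genes rpb3, rpb6, rpb7, rpb9 and rpb10 fell by 0.14 to 0.29, and rpc10 rose by 0.27. Of 16 elongation factor genes 3 fell, spt4 (-0.41 ± 0.06), ell1 (-0.32 ± 0.05) and paf1 (-0.21 ± 0.05), and none rose.

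In the list of termination and 3′ processing genes msi2 stood apart. It encodes an RNA-binding subunit of the mRNA cleavage factor and was at 36.0, 33.3 and 30.9 CPM in ALT-P3A and at 75.5, 79.5 and 79.5 CPM in ALT-P6A, without overlap and with a log2 fold change of -1.20 ± 0.06 (edgeR adjusted p = 3.4e-08). WT29 set 1, at 40.0, 41.5 and 51.4 CPM, lay above ALT-P3A and below ALT-P6A. Of the 21 genes 6 fell and 4 rose, with a median of -0.10, and msi2 was the 1 that was called. The termination factor gene rhn1, whose protein binds the CTD, fell by 0.48 ± 0.08, and ppn1 and yth1, of the cleavage and polyadenylation factor, fell by 0.33 and 0.32. The cleavage factor gene pcf11, whose protein also binds the CTD, rose by 0.35 ± 0.05, cid12 by 0.41 and din1 by 0.33. Membership of the list was set from general knowledge. In the annotations cid12 is a poly(A) polymerase and another member a Cdc14-related protein phosphatase, so the counts may include genes of other functions. The genes seb1 (0.03), dhp1 (-0.05), cft1 (0.05) and pta1 (-0.01) did not pass. The poly(A) polymerase gene pla1 (-0.19) and the cleavage factor gene rna14 (0.18) passed with edgeR adjusted p-values of 0.0162 and 0.0377, and iss1 fell by 0.13 (edgeR adjusted p = 0.0498).

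Meiotic and mating genes differed in single members rather than as groups. The transcript of mei2, the RNA-binding switch gene of meiosis, was at 11.2, 13.8 and 12.1 CPM in ALT-P3A and at 31.9, 34.1 and 31.3 CPM in ALT-P6A, a log2 fold change of -1.37 ± 0.09 (edgeR adjusted p = 2.68e-07). The gene of the mating transcription factor, ste11, fell by 0.38. Both alleles were well below WT29 set 1, which had 168, 142 and 128 CPM of mei2 and 262, 254 and 294 CPM of ste11. Of the 21 mating genes these 2 fell and 3 rose: ste6 (0.73), the fusion formin gene fus1 (0.52) and the P-factor pheromone gene map2 (0.51). The pheromone receptor gene mam2 (0.10), ste4 (0.03) and the M-factor gene mfm1 (-0.13) did not pass. Without ALT-P3A library 1, 1 member rose. Of 11 meiotic transcripts that growing cells remove, rec8 (-1.92 ± 0.42), mug8 (-1.16 ± 0.13) and crs1 (-0.94 ± 0.31) fell and ssm4 (0.82 ± 0.28) rose. They were weakly expressed, with rec8 at 0.155 ± 0.0143 CPM in ALT-P3A and 0.616 ± 0.160 CPM in ALT-P6A (SD, n = 3 each). The rise of ssm4 was lost without ALT-P3A library 2 or 3 or ALT-P6A library 1, and 2 members rose without ALT-P6A library 2.

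The machinery that removes such transcripts was mixed, with 3 of 10 genes higher (rrp6, mtl1 and cid14, at 0.44, 0.37 and 0.25) and 4 lower (red5, red1, pab2 and erh1, at -0.38, -0.26, -0.26 and -0.20). Without ALT-P6A library 1, 1 member rose, and without ALT-P3A library 1 or 3, or ALT-P6A library 1 or 2, 2 fell. Of 18 heterochromatin and RNAi genes 9 rose, none fell, and the median log2 fold change was 0.23. These were stc1 (0.79 ± 0.18), which links RNAi to the Clr4 complex, rik1 (0.42 ± 0.05) of that complex, the chromodomain genes chp2 (0.60 ± 0.12) and chp1 (0.25), the genes tas3, mit1, clr2 and rdp1, and epe1. The count that rose was 5 without ALT-P3A library 1 or ALT-P6A library 1 or 3, and 12 without ALT-P6A library 2. The core genes swi6, clr4, ago1 and dcr1 did not pass, with 0.14, 0.21, -0.03 and 0.08.

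**Figure D5:**
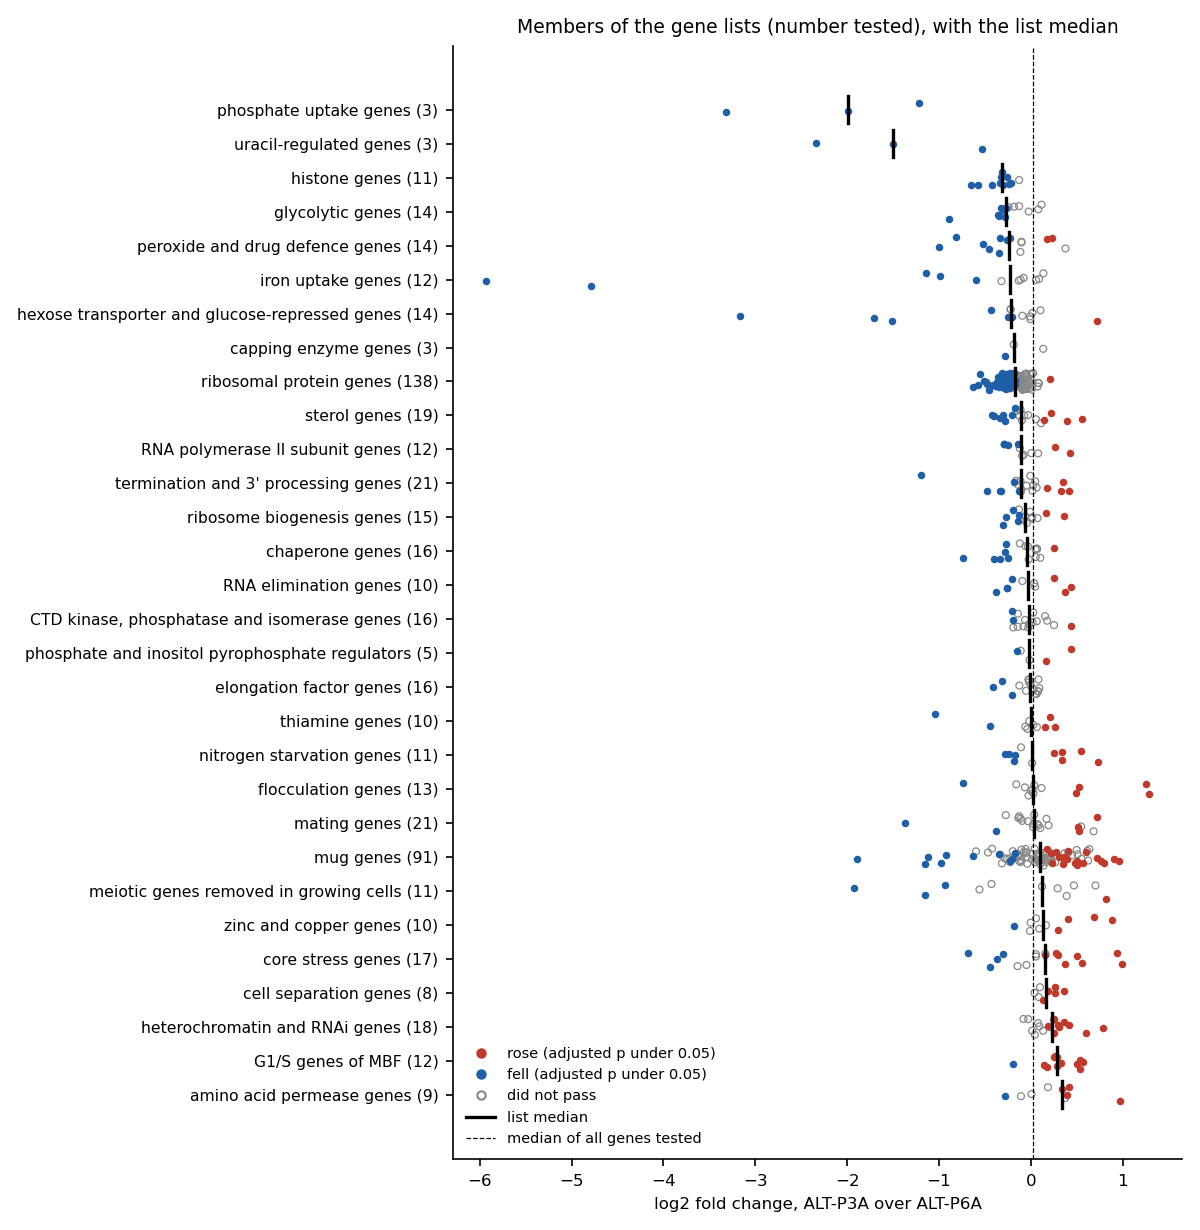
Each point is a tested member of a gene list with its log2 fold change, ALT-P3A over ALT-P6A (filled red or blue, rose or fell at an adjusted p under 0.05; open, did not pass). Black bars are list medians and the dashed line is the median of all 6100 genes, 0.03. Phosphate uptake (median -1.99) and uracil-regulated genes (-1.50) lie farthest to the left, and the other lists have medians between -0.32 (histone genes) and 0.34 (amino acid permease genes).

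Growth-related lists shifted by small amounts. Over all genes tested 22.7% rose and 19.5% fell. Of 11 histone genes 10 fell and none rose, with a median log2 fold change of -0.32: hhf2, a histone H4 gene, was at 563 ± 32.8 CPM in ALT-P3A and 899.5 ± 37.9 CPM in ALT-P6A (SD, n = 3 each), a log2 fold change of -0.65 ± 0.06, and hta1, a histone H2A gene, had -0.57 ± 0.06. The G1/S genes of the MBF transcription factor went the other way, with 11 of 12 higher in ALT-P3A and 1 lower, and a median of 0.29. The ribonucleotide reductase gene cdc22 rose by 0.53 ± 0.06 and the G1/S cyclin gene cig2 by 0.51 ± 0.04, and suc22, the small subunit gene of ribonucleotide reductase, fell by 0.20. This count depended on the libraries: 6 rose without ALT-P6A library 1 or 3, and 4 with the ALT-S5A libraries added to the fit. Of 8 cell separation genes 5 rose, among them adg1 (0.36) and agn1 (0.26), and 3 rose without ALT-P6A library 1. The histone H3 and H4 genes are near-identical copies, so single copies are uncertain.

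Of 138 ribosomal protein genes 60 fell and 1 rose, with a median of -0.17 and the lowest at -0.63 (rps001). The count that fell was 33 without ALT-P3A library 1 or 3, 31 without ALT-P6A library 1 and 36 without ALT-P6A library 3, and 2 rose without ALT-P3A library 1. It went the other way too, to 86 that fell without ALT-P6A library 2 and 79 with the DESeq2 Wald test. Many of these genes are paralogue pairs whose reads may be split. Of 15 ribosome biogenesis genes 5 fell and 2 rose. Of these, 2 fell without ALT-P3A library 1 and 3 fell without ALT-P3A library 3 or ALT-P6A library 1 or 3, and 1 rose without ALT-P3A library 2 or 3 or ALT-P6A library 1 or 2. Of 19 sterol genes 7 fell and 4 rose, where 19.5% of all genes fell and 22.7% rose. Among those lower were erg28 (-0.42), erg6 (-0.34) and hem13 (-0.40), which is a heme synthesis gene placed in this list. Among those higher were erg31 (0.56) and erg32 (0.39), copies of the same desaturase gene family.

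Stress and drug defence genes were divided, beside 22.7% of all genes that rose and 19.5% that fell. Of 17 core stress genes 8 rose, led by the heat shock gene hsp9 (1.00 ± 0.06), with 334 ± 25.4 CPM in ALT-P3A and 171 ± 14.2 CPM in ALT-P6A (SD, n = 3 each), and rds1 (0.94 ± 0.07). Another 4 fell, among them plr1 (-0.68 ± 0.06), which encodes pyridoxal reductase, and the transcription factor gene atf1 (-0.30). Of 14 peroxide and drug defence genes 8 fell and 2 rose, with a median of -0.24. The spermine transporter gene caf5 was at 105, 94.0 and 96.5 CPM in ALT-P3A and at 202, 173 and 227 CPM in ALT-P6A (-1.0 ± 0.08), and the quinone reductase gene obr1 had -0.81 ± 0.09. The factor gene behind many of them, pap1, fell by 0.22. Without ALT-P3A library 1 or 3, or ALT-P6A library 1 or 3, 1 member rose. Of 16 chaperone genes 6 fell, led by the Hsp70 gene ssa1 (-0.74 ± 0.06), and wos2 rose by 0.25, which was lost without ALT-P3A library 1 or ALT-P6A library 1. The small heat shock gene hsp16 had 0.10 ± 0.10 and did not pass.

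Of 9 amino acid permease genes 4 rose and 1 fell, with the list's median at 0.34: the arginine and lysine transporter gene can1 was at 98.8, 102 and 102 CPM in ALT-P3A and at 51.2, 51.7 and 54.7 CPM in ALT-P6A (0.97 ± 0.05), aat1 and cat1 rose by 0.42 and 0.39, and put4 fell by 0.28. Of 11 nitrogen starvation genes 5 rose, with the oligopeptide transporter gene isp4 at 0.73 ± 0.10, and 4 fell. For this list and those that follow, the shares of all genes are 22.7% that rose and 19.5% that fell. Of 13 flocculation genes pfl3, pfl7 (1.25 ± 0.21), pfl8 (0.52) and the regulator gene cbf12 (0.49) rose and pfl9 (-0.74 ± 0.16) fell. Without ALT-P3A library 2 a second member fell. Of 10 thiamine genes 2 fell, including nmt1 (-1.04 ± 0.24) at 0.861 ± 0.247 CPM in ALT-P3A and 1.83 ± 0.0433 CPM in ALT-P6A (SD, n = 3 each), and thi5, thi9 and pho4 rose by 0.27, 0.20 and 0.16. Without ALT-P3A library 1 or 3, or ALT-P6A library 2, 1 thiamine gene rose. Of 91 mug genes, named for their rise in meiosis, 20 rose and 10 fell, with a median of 0.10. The share that rose is near the 22.7% of all genes, and 11 rose without ALT-P3A library 1 and 13 without ALT-P3A library 3 or ALT-P6A library 1.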

How the data were processed

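Polyadenylated RNA was extracted with hot acid phenol, libraries were stranded (TruSeq mRNA) and sequencing was by NovaSeq, per the labels' protocols. The submitters' processing notes name HISAT2 2.1.0, SAMtools, HTSeq 0.10.0, DESeq2 and the build ASM294v2. The authors deposited a table of raw counts per gene. The authors' deposited tables for each allele also hold a log2 fold change over their control, an adjusted p-value and mean signal values, read as counts divided by size factors. The reference annotation, of another build, gave names, classes and gene order for 6833 of 6986 IDs, and no coordinates.

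Counts were filtered (filterByExpr, 886 genes removed), scaled by TMM and tested in edgeR 4.0.16 (R 4.3.3), with Benjamini-Hochberg adjustment. The code was tested on simulated data. DESeq2 1.42.0, other filters, an added allele, a replicate block and left-out libraries were the alternatives. Of the count table's columns 19 were not used, 3 of which match no single label.

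Genes named by rule were rpb1, the 12 coding genes with the largest change each way and the 4 non-coding RNAs each way (called, average log2 CPM of at least 2, libraries not overlapping), members of the phosphate, CTD, capping and termination lists (1 is not reported here), and up to 4 called members of each other list. Others were picked after their values were seen. The alleles compared and the 30 lists were chosen with earlier results of these data known. Depth was 19541019 to 28137577 counts per library. The count interval covers counting error only.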

Additional observations from a re-analysis of the deposited data

How the results depend on the processing

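Without the 2-fold minimum 1387 genes were higher in ALT-P3A and 1190 lower, in place of 126 and 68. Every other alternative kept both counts within 1.5 times: 123 higher and 73 lower with DESeq2 size factors, 109 and 69 with the DESeq2 Wald test, 145 and 86 with no filter on low counts, and 124 and 73 with the ALT-S5A libraries added. With 1 library left out, 121 to 180 were higher and 67 to 86 lower, and between 171 and 184 of the 194 called genes were among those called. Over all lists together 67 to 94 members rose, against 97 in the full set, and 130 to 197 fell, against 170. Of the values of named genes under the alternatives, 910 kept direction and side of the threshold, 33 no longer passed, 14 newly passed and 0 reversed. With the replicate number as a block, 126 genes were higher and 69 lower, and 32 ribosomal protein genes fell, against 60 without it. Deviations of libraries with the same number correlated at -0.14, -0.12 and -0.12, so the numbers give no sign of pairing. Those of ALT-P3A libraries 1, 2 and 3 with ALT-P6A libraries 2, 3 and 1 correlated at 0.25, 0.25 and 0.31. The remaining pairs were negative. The block used the numbers as labelled, and a pairing in the other order was not tested. The fit with the control columns taken as a second wild-type set was not run, since those columns match no single label. Counts under about 10 per library limit the weakest genes, such as shu1 in ALT-P3A.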

Other observations

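Several genes outside the lists fell in ALT-P3A, and they stood differently against wild type. The glyoxylate reductase gene gor1 was at 196, 209 and 190.4 CPM in ALT-P3A and at 538, 508 and 539 CPM in ALT-P6A, a log2 fold change of -1.39 ± 0.05 (edgeR adjusted p = 3.8e-10), with WT29 set 1 near ALT-P6A at 586, 487 and 389.9 CPM. The glucose dehydrogenase gene gcd1 was at 7.66, 7.67 and 7.16 CPM in ALT-P3A and at 16.5, 18.2 and 18.8 CPM in ALT-P6A. The phospholipase B gene plb1 was at 2158, 2135 and 1998 CPM in ALT-P3A and at 4264, 4559.8 and 4328 CPM in ALT-P6A, and WT29 set 1 was below both at 1593, 1393 and 1136 CPM. The galactosyltransferase gene otg2 (-1.43 ± 0.12), the kinase gene ppk31 (-1.67 ± 0.16) and the NEDD8 protease gene nep2 (-1.15 ± 0.09) were called lower too. For none of these 6 genes did the alleles overlap, as for 190 of the 194 called genes. For otg2 and ppk31 this was a condition of naming.

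Of the genes higher in ALT-P3A, a run of 4 neighbours held the predicted cysteine transporter gene SPBPB10D8.01, the arylsulfatase gene SPBPB10D8.02c with its antisense RNA, and the transporter gene SPBPB10D8.04c, with log2 fold changes of 1.62, 1.88, 1.41 and 1.5. SPBPB10D8.01 was at 13.4, 11.9 and 14.2 CPM in ALT-P3A, at 4.15, 4.59 and 4.39 CPM in ALT-P6A and at 14.3, 11.1 and 10.2 CPM in WT29 set 1, so that ALT-P6A was the lower of the alleles against that wild type. The predicted spermidine family transporter gene SPBC36.02c was at 29.5, 25.6 and 29.7 CPM in ALT-P3A and at 12.7, 12.9 and 12.6 CPM in ALT-P6A. By chromosome, 2761 tested genes on I included 54 that were called higher and 24 called lower, 2211 on II included 54 and 24, and 1115 on III included 17 and 20. Over all genes tested 2.07% were called higher and 1.11% lower. The chromosomes differ in the number of genes tested, so the raw counts cannot be compared directly.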
